A study of Rattus norvegicus with 2 samples.

Results

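The genes described here are 10 genes of bone morphogenetic protein (BMP) signalling and its Id targets, namely the ligand gene Bmp4, the receptor genes Bmpr1a and Bmpr2, the antagonist genes Nog and Grem1, the inhibitory Smad gene Smad6, and Id1, Id2, Id3 and Id4. They were chosen by name, with earlier results of these data known. Each was found in 1 of the 23188 transcript clusters (sets of probes read together for 1 gene) of the Clariom S rat array. Gene expression was compared between C6 cells, an established rat glioma cell line with wild-type tafazzin, and C6 TAZ cells, which were derived from C6 by knock-out of tafazzin with CRISPR-Cas9. Both were grown in DMEM with fetal serum and antibiotics, and no further treatment is named. It is not stated whether C6 TAZ is a single clone, so an effect of the knock-out and a property of the selected cells cannot be told apart. For each genotype, RNA from 3 cultures was pooled on 1 array. The spread between cultures was therefore not measured, and no difference below has a replicate check, a p-value or an SD over samples.

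BMPs are secreted factors that bind a complex of type I and type II receptors on the cell surface. The type I receptor then phosphorylates Smad1, Smad5 or Smad9, which enter the nucleus with Smad4 and switch on target genes, among them the Id genes and Smad6. Id proteins are helix-loop-helix proteins without a DNA-binding basic region. They bind E proteins and thereby keep these from forming active pairs with tissue-specific factors such as those of the neuronal and oligodendrocyte lineages. In the developing brain, BMPs and Id proteins are known to favour the astrocyte fate over those lineages.

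Before any value is read, a conflict over the names of the conditions has to be stated, because it sets the direction of every difference below. In the deposited workbook the columns are called C6 and C6 TAZ. The same signals are also deposited by sample, and there the 2 columns match the workbook in 100% of the clusters when exchanged, and in 1.16% as named. The workbook's names were used here, because the 10 genes were taken from it and the study's own gene tables list these signals under the same names. With the other names, every size stays the same and every sign turns. For Taz, the gene that was knocked out, the C6 array gave a log2 signal of 10.34 and the C6 TAZ array one of 9.84 (difference −0.50). The place of its probes relative to the edited site is unknown here, so this value does not check the genotype.

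The signals of both arrays are deposited on the log2 scale, on which a difference of 1 is 2-fold. Differences are given as C6 TAZ minus C6, without further scaling. The array medians were 6.39 for C6 and 6.40 for C6 TAZ, and the median difference over all clusters was 0.00. As a measure of how far signals scatter without an expected change, the SD of the log2 difference was 0.48 among 1416 clusters of olfactory and vomeronasal receptors, which are not expected in glioma cells and mostly had low signals. It was 0.21 among 122 clusters of cytosolic ribosomal proteins. Signals of different genes depend on their probes and were not ranked against each other. A log2 signal under 6 is called low here, since 96.3% of the receptor clusters had a mean below it.

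The 250 bases before the annotated start of the 4 Id genes are shown because Id2 and Id4, which had the largest differences, can be set beside the related Id1 and Id3. The sequences are from RefSeq on the GRCr8 build, while the array is annotated on another build, and the strand of the gene is given with each. Capitals mark the motifs that were found, which are CCAAT (or ATTGG on the other strand) and TATAAA.
Id1 (chr3:161671314-161671563, + strand): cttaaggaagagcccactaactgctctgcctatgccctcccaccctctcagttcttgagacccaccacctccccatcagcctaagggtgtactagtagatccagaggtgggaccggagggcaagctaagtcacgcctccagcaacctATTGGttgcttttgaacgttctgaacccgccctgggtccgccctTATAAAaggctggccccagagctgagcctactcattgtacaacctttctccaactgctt
Id2 (chr6:47470996-47471245, − strand): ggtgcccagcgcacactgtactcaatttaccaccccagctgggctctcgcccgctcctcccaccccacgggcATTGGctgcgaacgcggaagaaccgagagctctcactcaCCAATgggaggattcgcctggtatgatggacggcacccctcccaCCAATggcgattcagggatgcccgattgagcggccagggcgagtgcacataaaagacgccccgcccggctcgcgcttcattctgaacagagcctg
Id3 (chr5:153656041-153656290, + strand): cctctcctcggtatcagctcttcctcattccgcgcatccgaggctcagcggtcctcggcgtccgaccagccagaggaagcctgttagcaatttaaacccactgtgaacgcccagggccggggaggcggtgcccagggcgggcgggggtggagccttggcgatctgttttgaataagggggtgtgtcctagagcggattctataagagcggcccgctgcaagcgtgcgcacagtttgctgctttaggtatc
Id4 (chr17:16598294-16598543, − strand): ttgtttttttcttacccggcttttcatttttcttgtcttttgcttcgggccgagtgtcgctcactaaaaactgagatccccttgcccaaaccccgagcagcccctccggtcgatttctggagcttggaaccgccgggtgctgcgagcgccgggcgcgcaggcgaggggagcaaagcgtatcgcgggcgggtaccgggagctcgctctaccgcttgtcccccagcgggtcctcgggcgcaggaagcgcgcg

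The Id2 window held 3 CCAAT motifs, which began 178, 139 and 95 bases before the start, the one at 178 on the opposite strand. The Id1 window held 1 CCAAT motif at 103 on the opposite strand and a TATAAA motif at 59. None of the 8 motifs searched was found in the Id3 or the Id4 window. CCAAT was present in 34.0% and TATAAA in 12.9% of 33469 promoters of the same length. The others searched on both strands were the GC-rich Smad motif GGCGCC (8.69% of promoters), the Smad motifs CAGACA (17.2%) and GTCTAGAC (0.173%), the E-box CACGTG (5.59%), the AP-1 motif TGANTCA (6.34%) and the cAMP response motif TGACGTCA (1.59%). No motif in this set contains another. Of the Smad motifs, GGCGCC was found in the windows of Nog, at 51 bases before the start, and Grem1, at 91. CAGACA was found in that of Bmp4, at 36 on the opposite strand. Neither was found in the window of an Id gene. Smad6 had no promoter in the set and was not searched. Matches to the other motifs outside the Id genes are not listed. A match is a description of the letters. Forms of the E-box other than CACGTG, and elements farther from the start, were not searched.

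Id2 and Id4 had higher signals in the C6 TAZ array by more than 2-fold, Id1 was higher by less than that, and Id3 differed little. The genes for the ligand and the antagonists had low signals in both arrays and differed by less than the scatter of the receptor clusters. Of the 10 genes, 2 passed 2-fold upward and 0 downward, against 2.34% of all clusters higher and 2.1% lower. At 1.5-fold, 4 of the 10 were higher (Id1, Id2, Id4 and Bmpr2) and 0 lower, against 9.87% and 9.05% of all clusters. Because the genes were chosen with earlier results of these data known, these shares are a description and do not test an enrichment. The median log2 difference of the 10 genes was 0.34, against 0.00 over all clusters. Above 0 were 9 of the 10, among them Nog (0.21) and Grem1 (0.04) at low signals.

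**Figure D1:**
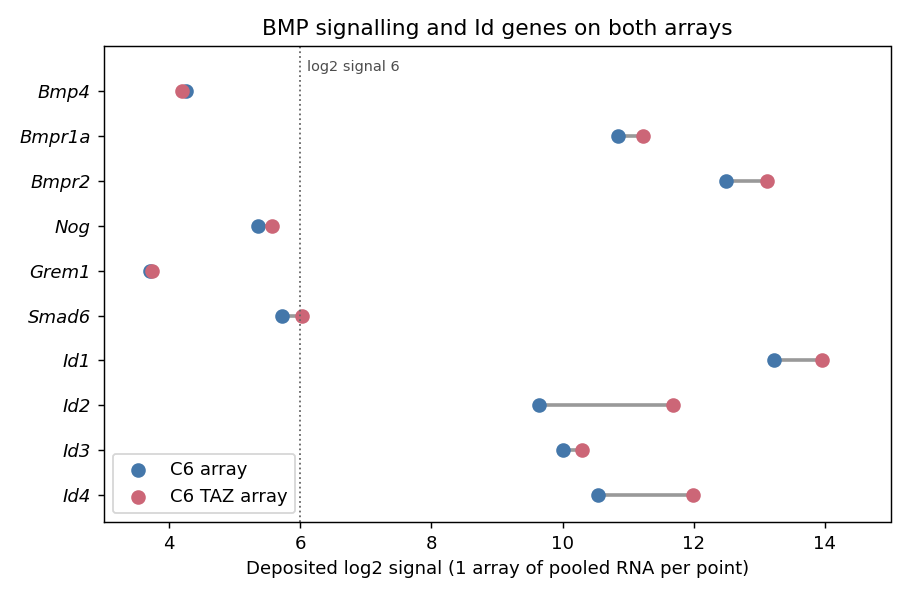
Deposited log2 signals of the 10 genes (horizontal axis) in the C6 array (blue) and the C6 TAZ array (red), each point being 1 array of pooled RNA and the dotted line a log2 signal of 6. The widest gaps are those of Id2 (9.64 and 11.68) and Id4 (10.54 and 11.99), and the points of Bmp4 and Grem1 nearly coincide at low signals.

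Bmp4 encodes a ligand that is known to pattern the dorsal nervous system. Its log2 signal was 4.25 in C6 against 4.19 in C6 TAZ. This is a log2 difference of −0.06 between signals that lie in the range of receptors not expected in these cells. A change of Bmp4 transcripts could not be read at such signals.

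Of the receptors, Bmpr1a, which encodes a type I receptor for BMP2 and BMP4, gave a log2 signal of 10.84 in C6 against 11.22 in C6 TAZ (difference 0.38). Bmpr2, the type II receptor that is dedicated to BMPs and related factors, gave 12.49 against 13.12 (difference 0.63, 1.55-fold). Both receptors were thus well above low signals in both arrays, and both were somewhat higher in C6 TAZ. The difference of Bmpr2 exceeded the SD of the receptor clusters of the nose and that of Bmpr1a did not. Both exceeded the SD of the ribosomal protein clusters (0.21). Among the 6278 clusters with a mean log2 signal of 10 or above, the log2 differences ran from −0.72 at the 5th percentile to 0.74 at the 95th, and both genes lay inside this range.

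Nog encodes noggin, which binds BMPs outside the cell and keeps them from their receptors. The log2 signal was 5.35 in C6 against 5.56 in C6 TAZ (difference 0.21). Grem1 encodes gremlin 1, an antagonist of BMP2, BMP4 and BMP7, and gave log2 signals of 3.70 against 3.74. Both genes were low in both arrays, and neither difference exceeded the SD of the receptor clusters of the nose. Smad6, which acts inside the cell to block the BMP receptors and their Smads and is itself a BMP target, gave 5.72 against 6.02. Its difference of 0.30 was likewise within that SD and its signals lay at the border of the low range.

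Id2, an inhibitor of E proteins that is known in neural progenitors, gave a log2 signal of 9.64 with C6 RNA against 11.68 with C6 TAZ RNA. The difference of 2.04 is 4.11-fold, and ranked from the highest it stood at place 41 of 23188 clusters. Id4, which is known to restrain oligodendrocyte differentiation, gave 10.54 against 11.99, a difference of 1.45 or 2.73-fold, at place 126 in the same order. Both differences lay above the 95th percentile of clusters with a mean log2 signal of 10 or above, of which 2.31% were higher by 2-fold or more.

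Id1, the family member most often used as a readout of BMP signalling, was bright in both arrays. The log2 signal was 13.23 in C6 against 13.95 in C6 TAZ, which is 1.65-fold (difference 0.72). This is above the SD of both reference groups, but below the 95th percentile of clusters as bright, of which 8.52% were higher by 1.5-fold or more. Id3, which is often expressed together with Id1, gave 10.01 against 10.30 (difference 0.29). The 4 Id genes thus all had a higher signal in C6 TAZ, over a range from 0.29 to 2.04, and 2 of them passed 2-fold. Their median difference was 1.08, against 0.26 for the other 6 genes.

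**Figure D2:**
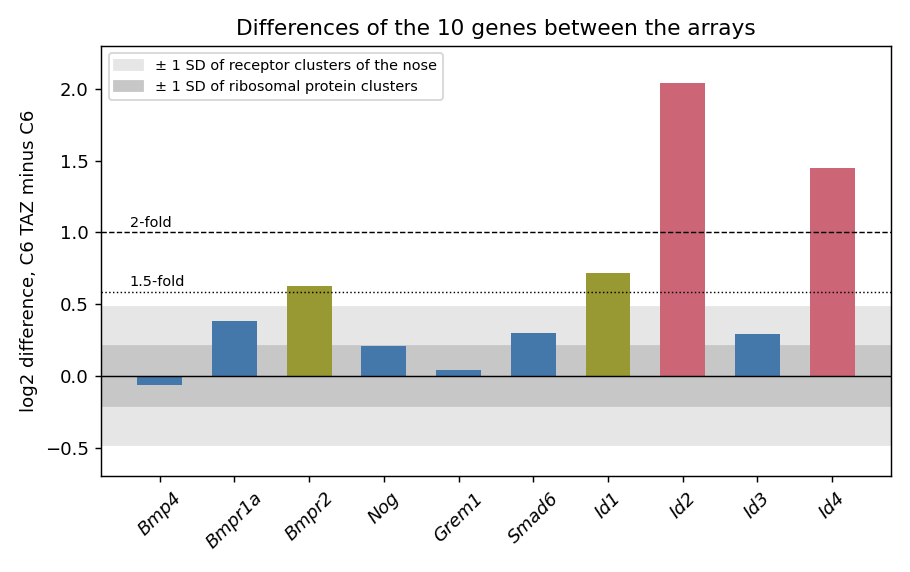
Log2 difference of C6 TAZ minus C6 for each of the 10 genes (bars from 0; red past 2-fold, olive past 1.5-fold, blue below), with grey bands for 1 SD of receptor clusters of the nose (0.48) and of ribosomal protein clusters (0.21). Id2 (2.04) and Id4 (1.45) lie past the dashed 2-fold line, and the bars of Bmp4, Bmpr1a, Nog, Grem1, Smad6 and Id3 end inside the wider band.

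**Figure D3:**
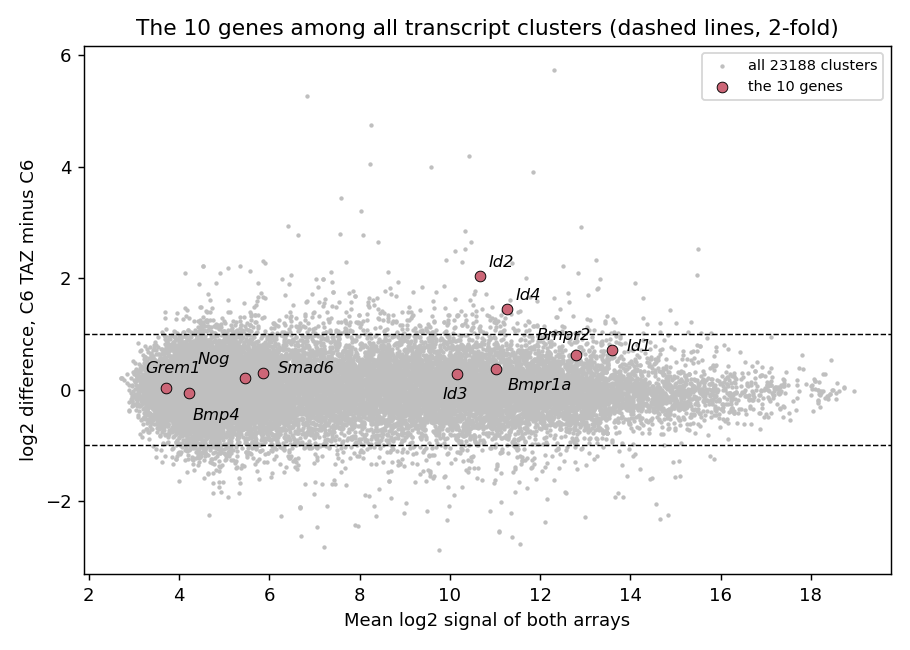
Log2 difference of C6 TAZ minus C6 (vertical axis) against the mean log2 signal of both arrays for all 23188 clusters (grey) and the 10 genes (red), with dashed lines at 2-fold. Id2 and Id4 stand above the bulk of the clusters, while the other 8 genes lie within the bulk, Id1 (0.72) and Bmpr2 (0.63) in its upper part.

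Other genes of the pathway were read from lists ordered by role, 76 genes in all. Of these, 1 was higher by 2-fold or more, 1 was lower and 74 were within 2-fold, and the median was −0.04. For a list of 76 genes, these counts were near the shares of all clusters, which were 2.34% higher and 2.1% lower.

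Of 14 further ligands, 0 passed 2-fold in either direction (median 0.03), and 12 had low signals in both arrays. The remaining ligands were Bmp2, at 8.62 in C6 against 8.16 in C6 TAZ, and Bmp7, at 10.20 against 10.02. BMP2 and BMP7 are ligands of the same receptor system, and both had slightly lower signals in C6 TAZ, at −0.46 and −0.18. Farthest the other way was Gdf3, at 0.33 and low signals.

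Of 10 further receptors and co-receptors, 0 passed 2-fold in either direction (median 0.28). The highest was Acvr2a, a type II receptor shared by activins and BMPs, at 8.13 against 9.12, a difference of 0.99 that is just under 2-fold. Rgma, a co-receptor for BMPs, followed at 9.69 against 10.57 (difference 0.88). Bambi, a pseudoreceptor that dampens the signal, had a difference of 0.50 (9.55 and 10.05). The lowest was Hfe2, which encodes the co-receptor hemojuvelin, at −0.59 and low signals (4.23 and 3.64). Acvr1, another type I receptor, was the lowest of those above low signals, at −0.47 (9.37 and 8.90). Of the 5 genes of this list above low signals, 4 were higher in C6 TAZ and 1 was lower.

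Of 17 further secreted BMP-binding proteins, 0 passed 2-fold upward and 1 downward (median −0.04). The exception was Chrdl2, a chordin-like antagonist, at 6.61 in C6 against 5.51 in C6 TAZ (2.14-fold lower). Its signal in C6 TAZ was low. Farthest the other way was Sost, at 0.50 and low signals. The related gene Chrdl1 was bright in both arrays, at 15.08 and 14.70. The follistatin gene Fst gave almost equal signals, at 11.53 and 11.49. Secreted antagonists were thus represented by bright clusters other than those of Nog and Grem1.

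Inside the cell, 0 of 12 Smad genes and their regulators passed 2-fold (median −0.08). The receptor-regulated Smads had slightly lower signals in C6 TAZ, with Smad1 at −0.33 (9.46 and 9.13) and Smad5 at −0.21 (12.10 and 11.89). Smad4, the shared partner, was at 0.38 (13.91 and 14.29). Smad7, the inhibitory relative of Smad6 that also acts on TGF-β receptors, was at −0.41 (6.98 and 6.57). These 4 differences were all below the SD of the receptor clusters of the nose. Those of Smad1, Smad4 and Smad7 exceeded the SD of the ribosomal protein clusters (0.21), and that of Smad5 was about equal to it. The highest gene of the list was Tob1, an antiproliferative factor known in osteoblasts to hold back BMP Smads, at 0.69 (12.85 and 13.54).

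Among 9 other transcription factors known as BMP targets, 1 passed 2-fold upward and 0 downward (median 0.40). Atoh8, a helix-loop-helix factor, gave a log2 signal of 5.50 in C6 against 7.20 in C6 TAZ, which is 3.25-fold (difference 1.70). Its signal in C6 was low. The T-box gene Tbx3 was higher by 0.86 (7.79 and 8.65) and the homeobox gene Msx2 by 0.49 (7.07 and 7.56). Dlx2, another homeobox gene, was farthest the other way at −0.69 (7.50 and 6.81). Known targets of the pathway therefore lay on both sides of 0, with Id2, Atoh8 and Id4 past 2-fold and Hey1 (−0.26) and Runx2 (−0.16) slightly below 0.

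The factors that Id proteins bind or act upon differed less than Id2 and Id4. Of 14 such helix-loop-helix genes, 0 passed 2-fold (median −0.16). The 3 E protein genes were bright and differed little, with differences of −0.25 for Tcf3, −0.08 for Tcf4 and −0.08 for Tcf12. Olig2, a factor of the oligodendrocyte lineage that Id proteins are known to bind, was the lowest at −0.84 (8.52 and 7.68). Hes1, a target of Notch signalling, was the highest at 0.74 (6.84 and 7.58). Neurog2 and Neurod1 of the neuronal lineage had low signals in both arrays.

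**Figure D4:**
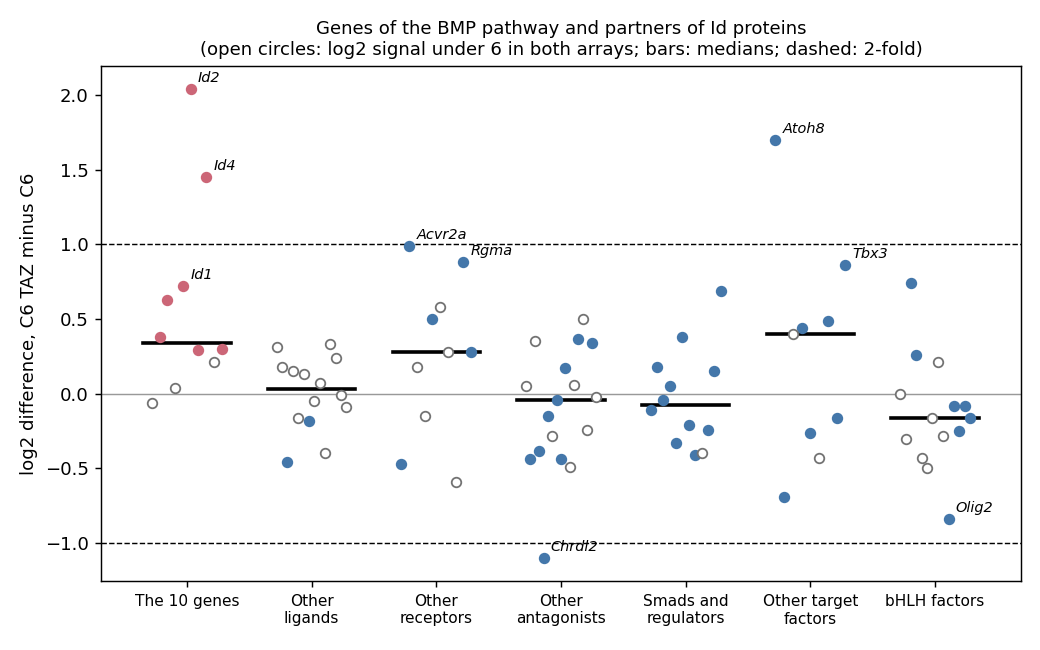
Log2 difference of C6 TAZ minus C6 (vertical axis) for the 10 genes (red) and 6 lists of further genes by role (blue), with open circles for genes at a log2 signal under 6 in both arrays, black bars for medians and dashed lines at 2-fold. Id2, Id4 and Atoh8 lie above the upper line, Chrdl2 below the lower one, and the genes of the remaining 4 lists between them.

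For each Id gene, the genes of these lists with the nearest log2 difference over the 2 arrays were looked up as a description. For Id2 and for Id4 they were Atoh8, Acvr2a and Rgma, at distances of 0.34 to 1.16 from Id2 and of 0.25 to 0.57 from Id4. Of the 3, Atoh8 was the nearest to each. For Id1 they were Hes1 and Tob1, followed at the same distance of 0.14 by Tbx3 above it and Bmpr1b, at low signals, below it. For Id3 they were Rgmb, and Eng and Bmp10, which both had low signals in both arrays. A difference as small as that of Id3 is shared by many genes.

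The genes on either side of each Id gene on its chromosome were compared, 5 measured genes on each side by their order in the RefSeq table. Around Id2, 1 of 10 was higher by 2-fold or more and 0 were lower, with a median of 0.46 and a range from −0.66 to 1.36. The gene past 2-fold was Rsad2, an interferon-induced gene, at 4.91 against 6.27. Next to Id2, Kidins220 had a difference of 0.50 (12.57 and 13.07) and Rnf144a one of 0.42 (12.87 and 13.29). The difference of Id2 was thus above that of each of its neighbours, and 7 of the 10 neighbours were also above 0. Around Id4, 0 of 10 passed 2-fold, with a median of 0.16 and a range from −0.79 to 0.57. The neighbours of Id1 had a median of −0.43 and 2 of 10 were lower by 2-fold or more, so Id1 was above all of them. Those of Id3 had a median of −0.01 and 1 was lower by 2-fold or more. These neighbours were named after their values were seen.

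**Figure D5:**
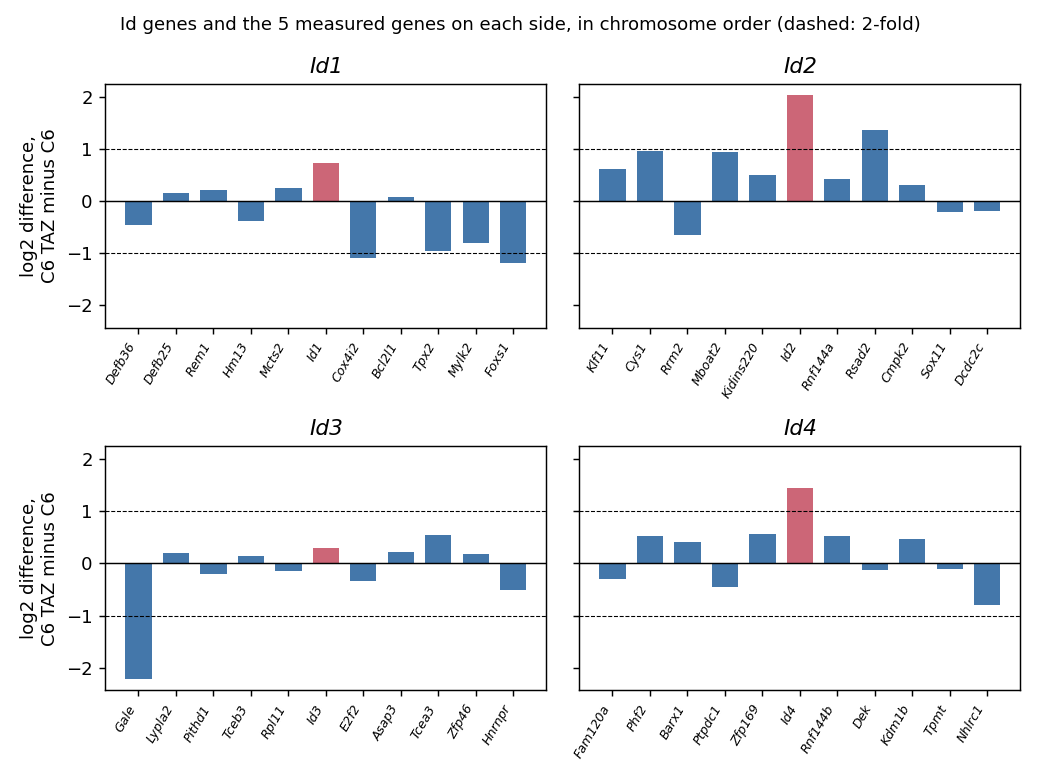
Log2 difference of C6 TAZ minus C6 (vertical axis) for each Id gene (red) and the 5 measured genes on each side of it (blue) in chromosome order, with dashed lines at 2-fold. Id1, Id2 and Id4 are above each of their neighbours, and Id3 (0.29) is below Tcea3 (0.54).

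Markers of cell types were read beside these results. Of 8 markers of C6 and astroglial cells, 0 passed 2-fold. Vim (18.72 and 18.77), Nes (13.22 and 13.08) and S100b (9.82 and 10.40) were well above low signals, whereas the astrocyte transporter gene Slc1a3 was low in both arrays (3.91 and 4.67) and Gfap was at 5.73 and 6.38. Of 24 markers of neurons, microglia, endothelium and fibroblasts, 1 passed 2-fold upward (Col3a1, 8.01 against 9.24) and 1 downward (Tek, 7.05 against 5.58), with a median of −0.18. Summed on the linear scale, the 6 fibroblast markers gave 28200.3 in C6 against 25815 in C6 TAZ, nearly all of it from Pdgfra, and the 5 others gave 454 against 809. Of these 5, Col3a1 was the brightest and had by far the largest difference (1.23). Col1a1 (0.15), Col1a2 (−0.21), Dcn (0.16) and Lum (0.29) differed little. The 6 endothelial markers gave 303 against 183. Tek had the highest C6 signal of these and the largest difference (−1.47). The other endothelial markers ran from −0.60 (Cdh5) to 0.15 (Pecam1). The part of these markers in the differences of the Id genes was not tested. In RNA from whole cultures, fewer cells that express a gene and less RNA per cell cannot be told apart.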

How the data were processed

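The authors hybridised 1 Clariom S rat array for each condition with RNA pooled from 3 cultures and deposited log2 signals per transcript cluster. The submitters' notes name Affymetrix Expression Console. The summarization of probes and normalization of arrays were not given in the sources used here. A deposited column of fold changes is the authors' own comparison and was not used, and a sheet of selected peptidases was not used either. An analysis of variance, as in the study's methods, cannot be run with 1 array per condition. Log2 differences and counts past 2-fold and 1.5-fold were computed with Python 3.11.15, pandas 2.3.3 and numpy 2.4.6, and counting was tested on simulated data. Each gene was read from clusters annotated to it alone, except genes with a single cluster annotated to several (Bmpr1b, Ski and Sox9). Of 119 genes looked up, 117 matched a RefSeq table by symbol and 2 by synonym. The 10 genes and the lists were chosen with earlier results of these data known. All 10 are named, with Taz, Smad1, Smad4 and Smad5. From each list, those past 2-fold, the farthest the other way (or the highest and the lowest) and those nearest to an Id gene are named. Other named genes were chosen after their values were seen. Other genes of the lists are not reported here by name. The number of arrays limits the precision. Alternatives were 3 scalings, the brightest cluster, other condition names, a minimum log2 signal of 6 or 8, a 1.5-fold threshold and the mean of the genes.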

Additional observations from a re-analysis of the deposited data

How the results depend on the processing

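The 3 scalings and the use of the brightest cluster moved no difference of the 10 genes by more than 0.04, and the count of 2 genes higher by 2-fold held under each of them. With the condition names of the table that has a column per sample, the counts past 2-fold were 0 higher and 2 lower, the median was −0.34, Id2 was at −2.04 and Id4 at −1.45. At 1.5-fold, 4 genes were higher. With the genes of low signal (under 6) left out, 7 genes remained, with a median of 0.63, and with those under 8 left out, 6 remained, with a median of 0.68. The mean over the 10 genes was 0.60, against a median of 0.34. No paired analysis was possible because each condition has 1 array.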
